A study of Mus musculus with 30 samples.

Results

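The 10 genes described here belong to the Nrf2 antioxidant response: Nfe2l2, which encodes the transcription factor Nrf2, its inhibitor Keap1, and the enzyme genes Gclc, Gclm, Gsr, Txnrd1, Srxn1, Prdx1, Nqo1 and Hmox1. They were taken by gene symbol as known genes of this response, and were found in both gene count tables, as 10 of 52630 genes in a time course and 10 of 55487 genes in a passage experiment. All 10 passed the filter on low counts, which left 16049 and 16054 genes for testing. The samples are E14tg2a mouse embryonic stem cells (ESCs), a single established line, so the libraries of a group are separate cultures of the same line. The study asked how a change of carbon source alters ESCs. The time course compared Serum/LIF, the standard serum medium with the cytokine LIF, glucose and pyruvate (0 h), with 3, 9 and 24 h of EMM, the same medium made with D-galactose instead of D-glucose and without pyruvate. The passage experiment compared cells kept for 10 passages (P10) or 20 passages (P20) in Serum/LIF, in EMM or in 2i/LIF, a medium that adds inhibitors of MEK and GSK3 to LIF. Each of these 4 and 6 groups had 3 libraries, described as biological replicates from independent experiments.

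In cells without oxidative or electrophilic stress, the KEAP1 protein binds NRF2 and directs it to degradation, and modification of cysteines in KEAP1 lets NRF2 accumulate. NRF2 then pairs with small MAF proteins on antioxidant response elements and raises transcription of genes for glutathione synthesis, the thioredoxin system, quinone reduction and haem breakdown. Much of this control acts on protein stability, which RNA levels do not measure.

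The antioxidant response element has a core written TGACNNNGC, where N is any base, and it links most of these genes in the literature. The 29-base sites that hold this core in member promoters are shown to let the sites be compared, and not every member has one. RefSeq promoter windows of GRCm38.p6, each from 250 bases before to 50 bases after an annotated start, were matched for 7 members with 9 windows, and none was matched for Hmox1, Gclc and Gsr. The core, read on both strands, was found in 5 of the 9 windows, against 4063 of 32817 promoter windows of all genes (12.4%). Each site is printed 5′ to 3′ on the minus strand of the genome, with the core in capitals.
Nfe2l2, chr2:75704885-75704913: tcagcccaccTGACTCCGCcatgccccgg
Gclm, chr3:122245413-122245441: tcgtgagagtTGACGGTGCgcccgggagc
Txnrd1, chr10:82859104-82859132: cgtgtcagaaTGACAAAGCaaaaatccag
Srxn1, chr2:152105542-152105570: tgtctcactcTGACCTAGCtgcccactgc
Prdx1, chr4:116685456-116685484: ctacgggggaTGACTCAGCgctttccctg
Counted along the strand of each gene, the first base of the core was at position -240 from the start of Nfe2l2 and -134 from that of Gclm. It was at -133 for Prdx1, 29 for Srxn1 and -92 from the second of 3 starts of Txnrd1. In all of these genes but Nfe2l2 the core is on the opposite strand, so this base is the last one printed in capitals. The windows of Nqo1 and Keap1 did not hold these letters. A match is a run of letters and no measurement of binding.

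Total counts ran from 24074132 to 35301962 in the 12 time-course libraries and from 6944918 to 27912959 in the 18 passage libraries, and the smallest was P20 2i/LIF library 1. A member gene had between 149 deposited counts (Keap1, P10 EMM library 3) and 32074 (Prdx1, EMM 3 h library 3), so no member was near the floor of 3 counts. All 5 ESC markers fixed for the check (Pou5f1, Sox2, Nanog, Zfp42 and Esrrb) were detected in every group, with summed normalized counts of 100211 to 108827 in the time course and 40438 to 63419 in the passage experiment. Values below are normalized counts, that is, counts scaled to a common library size within an experiment, so they are not comparable between the 2 experiments. A gene was called when edgeR's quasi-likelihood test gave a Benjamini-Hochberg adjusted p under 0.01 over all genes tested. In bulk RNA, fewer cells of a type and less RNA per cell cannot be told apart.

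Levels between genes were compared per kb of exon (GENCODE M21, GRCm38). In Serum/LIF of the time course, Prdx1, a peroxiredoxin that reduces peroxides, was the most abundant member, at 8734 ± 338 normalized counts per kb (SD, n = 3). Txnrd1 came next at 1874 ± 43.4 per kb, followed by Gsr at 1782 ± 33.2 per kb. Keap1 was the least abundant at 164 ± 14.3 per kb, and Nqo1 was next above it at 476 ± 6.20 per kb. The only neighbours in this order whose libraries overlapped were Srxn1 (724 per kb) and Gclm (680 per kb). After 24 h of EMM, Nqo1 had moved up the order to 1008 ± 41.6 per kb, above Hmox1 at 797 ± 33.6 per kb, and the libraries of these 2 genes did not overlap. By group mean, Prdx1 was highest and Keap1 lowest in all 10 groups of both experiments. In P20 2i/LIF the libraries of Keap1 and Gclm overlapped.

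Within 3 h of EMM the members began to separate: Hmox1, Nfe2l2, Gclm, Gsr and Txnrd1 rose, while Nqo1 and Keap1 passed the test only from 9 h. By 24 h, Nqo1 stood at 2.12-fold its Serum/LIF level, Nfe2l2 was still up, and Hmox1 had fallen below its starting level. At 3 h, 5 members were higher and 0 lower, against 16.3% of genes tested that were higher and 18.2% that were lower. At 9 h, 5 were higher and 0 lower, against 18.5% and 19.7% of genes. At 24 h, 4 were higher and 2 lower, against 21.8% and 22.2%. With the added requirement of the study that log2 fold change be over 1 in size, 1 member was higher at 24 h (Nqo1), against 3.50% of genes. The median log2 fold change of the 10 members was 0.16 at 3 h, 0.26 at 9 h and -0.02 at 24 h, while that of all genes was -0.01, 0.00 and 0.00. The 3 comparisons share the Serum/LIF libraries. No Serum/LIF group is labelled 3, 9 or 24 h, so time in culture and the change of medium cannot be told apart from EMM itself. At 3 and at 9 h, 0 members were lower at an unadjusted p under 0.05 in edgeR, and 0 were called lower by DESeq2. Marker sums of other cell types moved as well: neural markers ran from 1695 to 2086 in Serum/LIF and 2841 to 3149 at 3 h, mesoderm and endoderm markers from 489 to 554.6 in Serum/LIF and 333.1 to 383.8 at 24 h, and fibroblast markers from 1795 to 1883 and 1237 to 1468. Primitive endoderm markers summed to 308.8 to 318.8 in Serum/LIF, 264.6 to 286.6 at 3 h and 382.8 to 418.3 at 24 h. Trophoblast markers summed to 261.6 to 305.2 in Serum/LIF, 317 to 389.8 at 3 h and 321.5 to 340.3 at 24 h. Genes within a list did not all move alike. From Serum/LIF to 24 h the mean of Krt7 went from 87.36 to 179, that of Cdx2 from 70.69 to 33.85 and that of Hand1 from 121.1 to 118.7. Foxa1 went from 12.67 to 28.21, against the mesoderm and endoderm sum, while T (441.3 to 271.6) and Mixl1 (71.6 to 50.44) fell. The part of these markers in the members' changes was not tested.

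**Figure D1:**
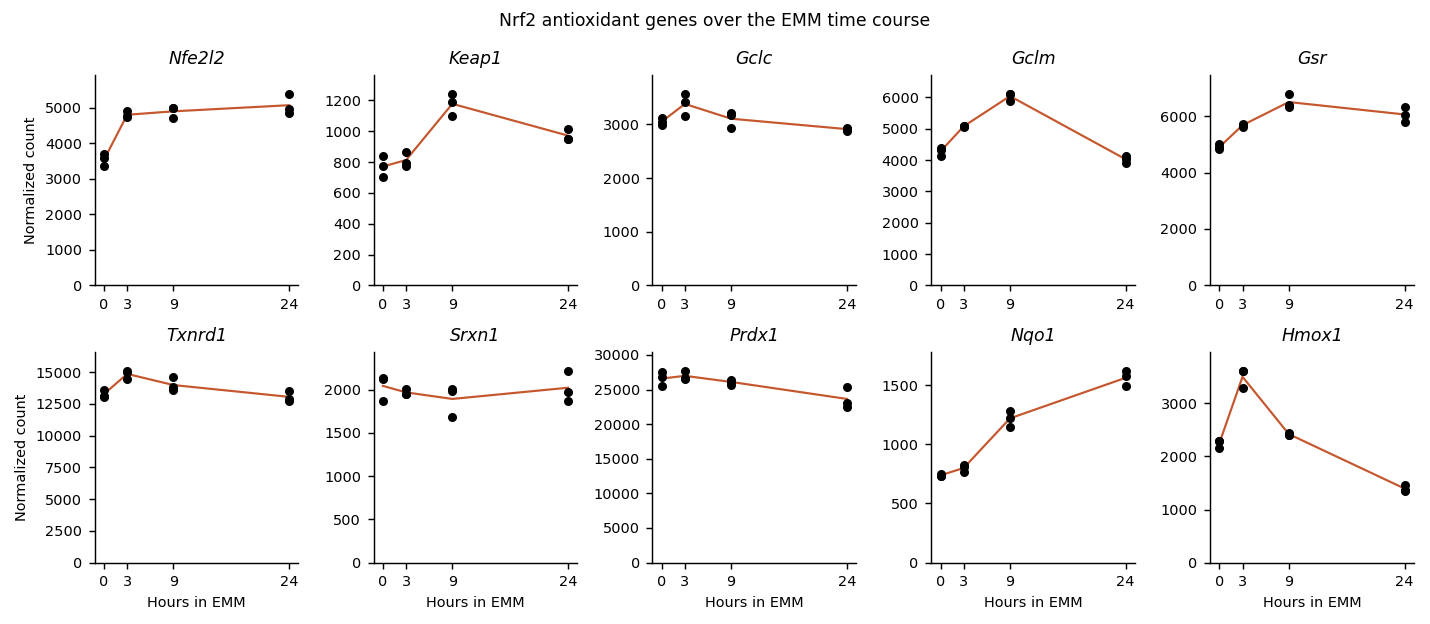
Normalized counts (y axis, from 0) of the 10 genes against hours in EMM (x axis, 0 h being Serum/LIF). Points are single libraries, 3 per time, and lines join group means. Hmox1 peaks at 3 h with libraries from 3282 to 3614, Gclm at 9 h from 5892 to 6120, and Nqo1 is highest at 24 h from 1495 to 1623.

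Of the 2 regulators, Nfe2l2 rose early and stayed up. Its normalized counts were 3352, 3571 and 3686 in Serum/LIF, 4739, 4755 and 4912 at 3 h, 5003, 4982 and 4712 at 9 h, and 4967, 5395 and 4852 at 24 h. Every EMM library lay above every Serum/LIF library, and the 3 EMM times overlapped with each other. The log2 fold change against Serum/LIF was 0.44 ± 0.05 (SE) at 3 h (adjusted p = 2.12e-06), 0.47 ± 0.05 at 9 h (1.03e-06) and 0.52 ± 0.05 at 24 h (2.46e-07), which is 1.43-fold at 24 h. Keap1, which encodes the substrate adaptor that hands NRF2 to a ubiquitin ligase, followed later. It had 773.8, 837.1 and 702.8 normalized counts in Serum/LIF and 796.5, 866 and 777 at 3 h, which overlapped. At 9 h it had 1190, 1244 and 1101, all above both earlier groups, and at 24 h 1014, 951 and 950.7, between them. Its log2 fold change against Serum/LIF was 0.61 ± 0.07 at 9 h (adjusted p = 3.12e-06) and 0.33 ± 0.07 at 24 h (0.000765). An antisense gene, Gm16754, overlaps Keap1, with a mean of 42.92 counts in the time course. Whether the time-course counts used strand is not given in the sources used here.

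The 2 subunit genes of glutamate-cysteine ligase, the rate-limiting enzyme of glutathione synthesis, did not move alike. Gclm, the modifier subunit, had 4318, 4127 and 4391 normalized counts in Serum/LIF, 5062, 5093 and 5083 at 3 h, 6120, 6116 and 5892 at 9 h, and 4040, 4117 and 3920 at 24 h. It rose in 2 steps that did not overlap and lay just under the Serum/LIF libraries at 24 h. Its log2 fold change against Serum/LIF was 0.25 ± 0.04 at 3 h (adjusted p = 4.19e-05) and 0.50 ± 0.04 at 9 h (3.28e-08), and at 24 h it did not pass (-0.09 ± 0.04, adjusted p = 0.048). Gclc, the catalytic subunit, had 2983, 3122 and 3051 in Serum/LIF and 3573, 3413 and 3160 at 3 h, a difference of 0.15 ± 0.05 in log2 that did not pass (adjusted p = 0.0171). It was called without EMM 3 h library 3 (0.00409), without the filter on low counts (0.00464) and by DESeq2 (0.0098). Its 9 h libraries (2938 to 3209) overlapped Serum/LIF and its 24 h libraries (2885 to 2938) lay below it, with no call at either time. The Gclm transcript holds a stretch of 282 bases that is 99.6% identical to Ppia, an abundant gene with a mean of 25640 counts, so reads of that stretch could be counted for either gene.

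Gsr encodes glutathione reductase, which regenerates reduced glutathione with NADPH. Its normalized counts were 4895, 4823 and 5004 in Serum/LIF, 5617, 5697 and 5739 at 3 h, 6388, 6328 and 6802 at 9 h, and 5799, 6336 and 6060 at 24 h. All EMM libraries were above all Serum/LIF libraries, and 24 h overlapped 9 h. The log2 fold change was 0.21 ± 0.04 at 3 h (adjusted p = 0.000496), 0.41 ± 0.04 at 9 h (9.19e-07) and 0.31 ± 0.04 at 24 h (1.21e-05).

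Changes in the thioredoxin arm were small. Txnrd1, the cytosolic thioredoxin reductase, had 13133, 13074 and 13633 normalized counts in Serum/LIF and 14465, 15102 and 15024 at 3 h, with no overlap. The rise of 0.16 ± 0.04 in log2 passed (adjusted p = 0.00289), but not without EMM 3 h library 2 (adjusted p = 0.0115) or library 3 (0.0147), nor when libraries were scaled by their totals (0.049) or blocked by the replicate number of the descriptions (0.013). At 9 and 24 h its libraries overlapped Serum/LIF. Srxn1, the sulfiredoxin that repairs over-oxidized peroxiredoxins, overlapped Serum/LIF (1867 to 2137) at every time, with 1945 to 2008 at 3 h, 1683 to 2008 at 9 h and 1872 to 2216 at 24 h. Prdx1 had 27480, 26796 and 25461 in Serum/LIF and 23020, 25395 and 22505 at 24 h, where it was lower by 1.12-fold (log2 -0.17 ± 0.04, adjusted p = 0.00452). That call was lost without Serum/LIF library 1 or 2 or EMM 24 h library 1 or 3 (adjusted p from 0.0249 to 0.0399) and under 2 other settings (0.0276 and 0.0361). At 3 and 9 h Prdx1 overlapped Serum/LIF. Prdx1 has near-identical pseudogenes, of which Gm21399 matches 98.3% over 597 bases and had a mean of 15.08 counts.

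The quinone and haem enzymes moved in opposite directions by 24 h. Nqo1, a quinone reductase widely read as an NRF2 target, had 733.8, 732.4 and 749.8 normalized counts in Serum/LIF, 764.6, 827.1 and 810.7 at 3 h, 1226, 1285 and 1152 at 9 h, and 1623, 1576 and 1495 at 24 h. No 2 of these groups overlapped. The log2 fold change did not pass at 3 h (0.12 ± 0.05, adjusted p = 0.0919) and was 0.73 ± 0.05 at 9 h (4.67e-08) and 1.08 ± 0.05 at 24 h (3.93e-10), which is 2.12-fold. Hmox1, the haem oxygenase that turns haem into biliverdin, iron and carbon monoxide, had 2298, 2297 and 2158 in Serum/LIF, 3612, 3282 and 3614 at 3 h, 2408, 2451 and 2407 at 9 h, and 1372, 1462 and 1352 at 24 h. It was highest at 3 h and lowest at 24 h, with no overlap between any of the 4 groups. Its log2 fold change was 0.64 ± 0.05 at 3 h (1.56-fold, adjusted p = 3.86e-08), 0.11 ± 0.05 at 9 h (0.0693) and -0.69 ± 0.05 at 24 h (1.61-fold lower, 1.37e-08). BACH1, which represses Hmox1, is a further known regulator of that gene.

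**Figure D2:**
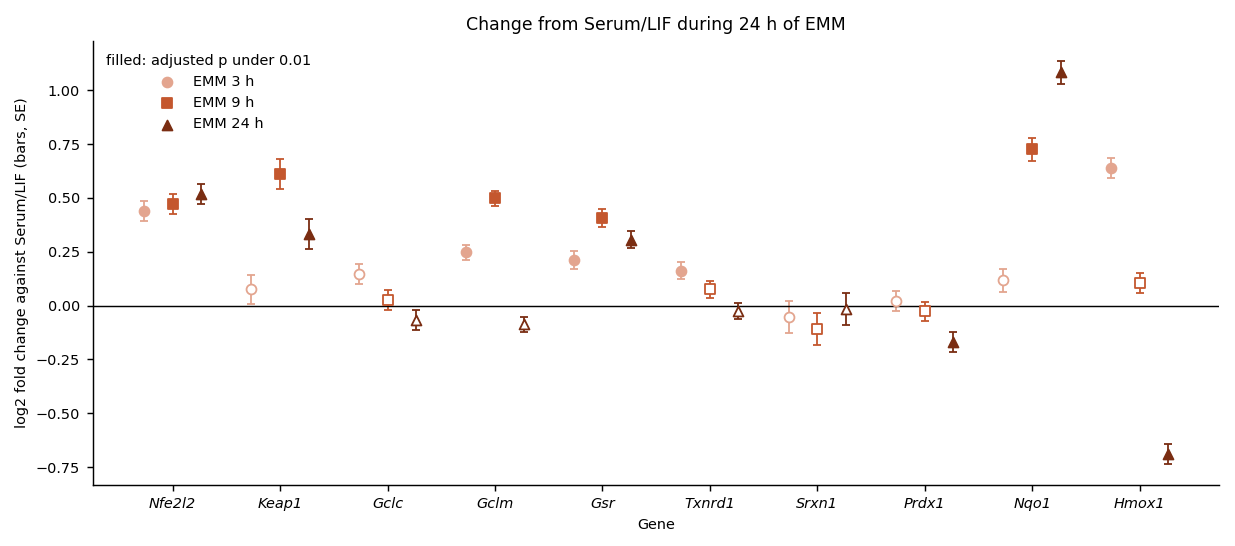
log2 fold change of each gene (y axis) at 3, 9 and 24 h of EMM against Serum/LIF, from edgeR, with SE bars. Filled symbols have an adjusted p under 0.01. Nqo1 climbs from 0.12 to 1.08 while Hmox1 descends from 0.64 to -0.69, and Srxn1 is open at all 3 times.

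The steps between EMM times were tested directly. From 3 h to 9 h, 4 members rose, against 13.7% of genes, and 1 fell, against 12.9%. Keap1 rose by 0.54 ± 0.07 in log2 (adjusted p = 1.96e-05), Nqo1 by 0.61 ± 0.05 (6.68e-07), Gclm by 0.25 ± 0.04 (5.43e-05) and Gsr by 0.19 ± 0.04 (0.00125). Hmox1 fell, at -0.53 ± 0.05 (5.87e-07). From 9 h to 24 h, 1 member rose, against 7.0% of genes, and 3 fell, against 6.02%. Nqo1 rose further (0.36 ± 0.05, adjusted p = 0.000164), while Hmox1 (-0.80 ± 0.05, 1.24e-07) and Gclm (-0.59 ± 0.04, 1.51e-07) fell. Keap1 also fell (-0.28 ± 0.07, 0.00729), but this call was lost without EMM 9 h library 1 or 2 or EMM 24 h library 2 or 3 (adjusted p from 0.0274 to 0.0395). Nfe2l2 overlapped between 3, 9 and 24 h and passed in neither step.

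In the passage experiment the members split by medium. After 10 passages, Nfe2l2, Nqo1, Srxn1 and Gsr were higher in both EMM and 2i/LIF than in Serum/LIF, Gclm was higher in EMM, and Keap1 and Gclc were higher in 2i/LIF. Nqo1 showed the largest difference of any member, about 7-fold in both media. Relative to Serum/LIF, 5 members rose and 0 fell in P10 EMM, against 18.7% of genes higher and 18.7% lower, and 3 were higher by a log2 fold change over 1 (Nfe2l2, Nqo1 and Srxn1), against 6.67% of genes. In 2i/LIF at P10, 6 were higher and 1 lower, against 26.4% and 25.6%, and 4 were over 1 (Nfe2l2, Nqo1, Gclc and Gsr), against 11.6%. The median member log2 fold change was 0.30 in EMM and 0.88 in 2i/LIF, while that of all genes was 0.01 and 0.02. Both comparisons use the same Serum/LIF libraries. In EMM at P10 and at P20, 0 members were lower at an unadjusted p under 0.05 in edgeR, and 0 were called lower by DESeq2.

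Serum/LIF differed from the other media in more than these genes. The summed normalized counts of the 4 fibroblast markers (Col1a1, Col1a2, Col3a1 and Thy1) ran from 2200 to 2645 in P10 Serum/LIF and from 3555 to 7069 in P20 Serum/LIF, against 45.02 to 364.1 in the 4 other groups, with none of the 4 genes at 0 throughout a group. Thy1 went against the sum, with a mean of 306.5 in P10 EMM and 140.1 in P10 Serum/LIF. The 4 trophoblast markers summed to 222.9 to 464.3 in Serum/LIF of both passages and 26.84 to 76.37 in EMM, and to 229.2 to 312.8 in P10 and 11.75 to 30.65 in P20 2i/LIF. Cdx2 made up most of the P10 2i/LIF sum (mean 263.7, against 59.77 in P10 Serum/LIF). Krt7 (11.03 and 234.3) and Hand1 (0.2715 and 76.98) went the other way. The 3 mesoderm and endoderm markers summed to 259.1 to 769.6 in Serum/LIF and 11.25 to 48.37 in EMM, and to 664.6 to 896.1 in P10 and 113 to 139.6 in P20 2i/LIF. T made up most of the P10 2i/LIF sum (mean 767.2, against 502.4 in P10 Serum/LIF), and Mixl1 (9.842 and 50.48) and Foxa1 (1.629 and 8.633) went the other way. Primitive endoderm markers (5 genes) summed to 165.4 to 264 in Serum/LIF, 56.11 to 80.37 in P10 EMM, 186.1 to 272 in P20 EMM and 70.49 to 128.4 in 2i/LIF. Pdgfra (43.02 and 17.67) and Sox17 (18.97 and 3.701) went against the sum between P10 2i/LIF and P10 Serum/LIF. Neural markers (3 genes) summed to 1798 to 2062 in P10 Serum/LIF, 293.3 to 375.7 in P10 EMM and 311.1 to 591.7 in P10 2i/LIF, and at P20 to 738.6 to 844.7, 583.9 to 664.7 and 872.6 to 1285. Nes made up most of the P10 Serum/LIF sum (mean 1845, against 205.8 in P10 EMM), and Sox1 went the other way (9.313 and 127.4). The 3 Zscan4 genes of 2-cell-like cells summed to 215.1 to 1291 in Serum/LIF and 17.14 to 72.18 in EMM, and to 265.3 to 748.5 in P10 and 5.172 to 43.1 in P20 2i/LIF. The part of these markers in the members' differences was not tested.

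Nfe2l2 had 769.6, 807.6 and 827.2 normalized counts in P10 Serum/LIF, 1902, 1668 and 1248 in EMM, and 1369, 1998 and 1969 in 2i/LIF. All libraries of EMM and 2i/LIF exceeded those of Serum/LIF, and the 2 media overlapped each other. The log2 fold change against Serum/LIF was 1.01 ± 0.16 in EMM (adjusted p = 5.08e-05) and 1.15 ± 0.16 in 2i/LIF (7.14e-06), and EMM against 2i/LIF gave -0.14 ± 0.16 (0.469). Keap1 had 364.6, 354.2 and 314.7 in Serum/LIF and 332.7, 311.7 and 341.3 in EMM, which overlapped. Its 594.9, 573.7 and 615.8 in 2i/LIF lay above both, at 0.79 ± 0.10 in log2 against Serum/LIF (1.57e-06).

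The 2 ligase subunits differed in which medium raised them. Gclc had 879.6, 855.2 and 873.4 normalized counts in P10 Serum/LIF, 1055, 986.6 and 778.9 in EMM, and 1439, 1894 and 2049 in 2i/LIF, where alone it was clear of Serum/LIF (1.05 ± 0.12, adjusted p = 7.14e-07). Gclm had 1357, 1272 and 1297 in Serum/LIF, 1756, 1733 and 1663 in EMM, and 1273, 1285 and 1372 in 2i/LIF. Its EMM libraries stood above all others, by 0.39 ± 0.08 against Serum/LIF (0.000596). Scaling by library totals left this at an adjusted p of 0.0101. Ppia, which shares a stretch with Gclm, had a mean of 31704 counts in the passage experiment. Gm10123, identical to Gclm over 244 bases, had a mean of 314.8 there and 2.75 in the time course, so reads of these stretches could be counted for either gene. Gsr had 1559, 1343 and 1491 in Serum/LIF, 2082, 1869 and 1796 in EMM and 3492, 3246 and 3952 in 2i/LIF, with no overlap. It rose by 1.28 ± 0.12 in 2i/LIF (2.63e-08) and by 0.39 ± 0.12 in EMM (0.00924). The EMM call was lost without EMM library 1 or 2 or any of the 3 Serum/LIF libraries (adjusted p from 0.0102 to 0.0517) and under 4 other settings (0.0121 to 0.0524).

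In the thioredoxin arm, Srxn1 rose in both media. Srxn1 had 460, 423.6 and 413 normalized counts in P10 Serum/LIF, 1064, 1116 and 980.4 in EMM, and 910.4, 823.4 and 806.4 in 2i/LIF, in 3 separate ranges. It was 2.44-fold higher in EMM (1.29 ± 0.09, adjusted p = 3.14e-09) and 1.96-fold higher in 2i/LIF (0.97 ± 0.09, 5.51e-08). Txnrd1 did not pass, with libraries from 5077 to 6277 that overlapped in all 3 media. Prdx1 had 16783, 16139 and 16547 in Serum/LIF and 14539, 12192 and 12153 in 2i/LIF, where it fell (-0.35 ± 0.09, 0.0024). This was not called without 2i/LIF library 2 or 3 or Serum/LIF library 1 (adjusted p from 0.0121 to 0.0155). In EMM, Prdx1 had 17445, 20006 and 19361, which did not pass (0.20 ± 0.09, 0.0708).

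Nqo1 had 227.6, 167.7 and 210.5 normalized counts in P10 Serum/LIF, 1559, 1493 and 1290 in EMM, and 1463, 1406 and 1366 in 2i/LIF. Serum/LIF stood far below both media, which overlapped. The log2 fold change was 2.85 ± 0.14 in EMM (7.19-fold, adjusted p = 1.47e-11) and 2.80 ± 0.14 in 2i/LIF (6.99-fold, 6.84e-12), and EMM against 2i/LIF gave 0.04 ± 0.12 (0.796). Hmox1 overlapped in all 3 media. It had 1078, 997.1 and 1167 in Serum/LIF, 1038, 869.7 and 925.5 in EMM, and 1028, 727.6 and 813.7 in 2i/LIF. The last was -0.34 ± 0.11 against Serum/LIF (adjusted p = 0.015), which was called at -0.48 (0.000777) without 2i/LIF library 1 and under 5 other settings (adjusted p from 0.00087 to 0.00913).

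**Figure D3:**
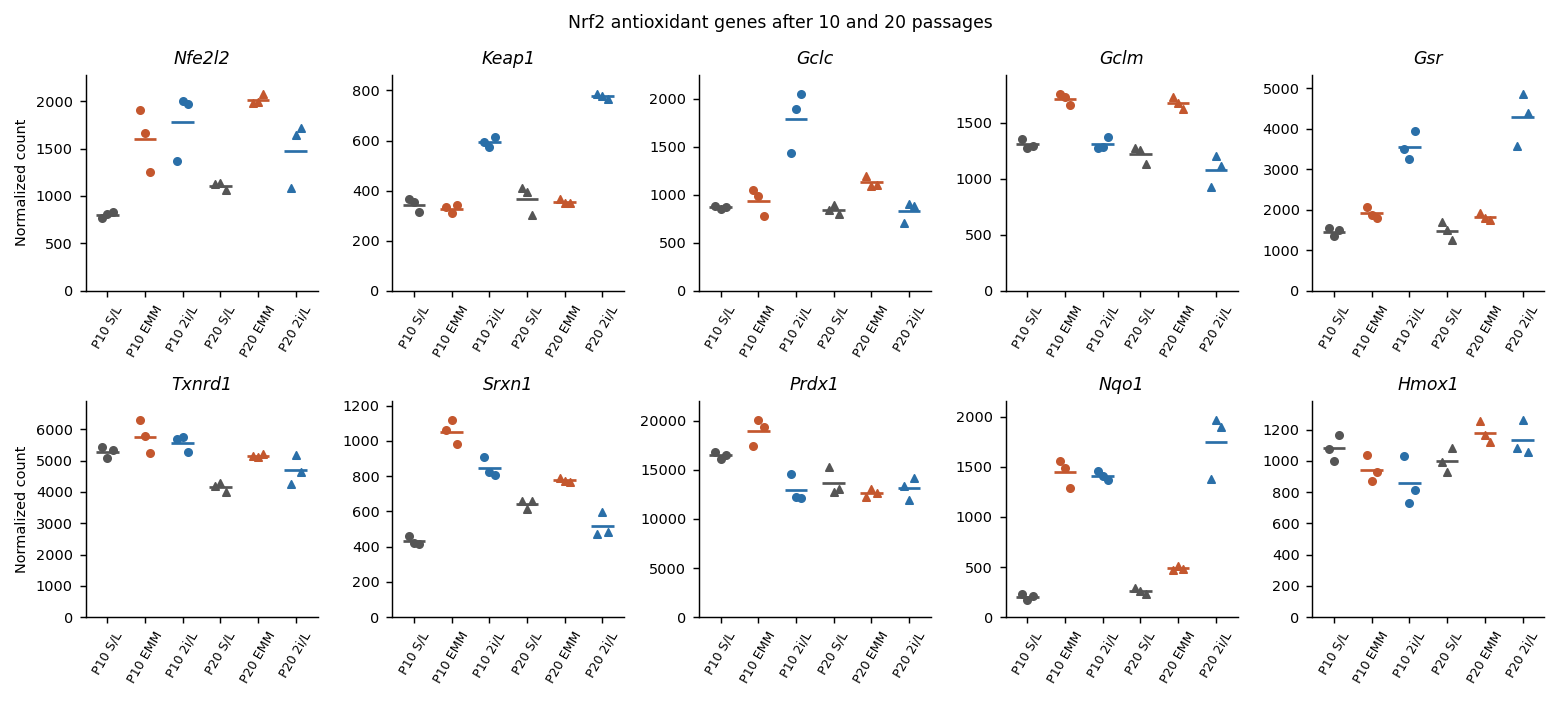
Normalized counts (y axis, from 0) of the 10 genes in Serum/LIF (S/L, grey), EMM (red-brown) and 2i/LIF (2i/L, blue) at P10 (circles) and P20 (triangles). Points are single libraries, 3 per group, and horizontal lines are group means. Nqo1 lies at 1290 to 1559 in P10 EMM and 473.5 to 505.8 in P20 EMM, while in 2i/LIF it lies at 1366 to 1463 and 1377 to 1962.

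Directly between EMM and 2i/LIF at P10, 3 members were higher in EMM, against 22.9% of genes, and 3 lower, against 22.2%. Gclm (0.39 ± 0.08, adjusted p = 0.000526), Prdx1 (0.55 ± 0.09, 4.43e-05) and Srxn1 (0.32 ± 0.09, 0.00572) were higher in EMM. Keap1 (-0.86 ± 0.10, 9.77e-07), Gclc (-0.93 ± 0.12, 4.49e-06) and Gsr (-0.89 ± 0.12, 3.13e-06) were lower. The Srxn1 call was lost without 2i/LIF library 2 or 3 or EMM library 1 or 2 (adjusted p from 0.0182 to 0.0312) and under 3 other settings (0.0162 to 0.0266).

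After 20 passages, EMM still had more Nfe2l2, Nqo1 and Gclm RNA than Serum/LIF, but the Nqo1 difference was much smaller, and 2i/LIF kept high Nqo1, Gsr and Keap1. Relative to Serum/LIF, 4 members rose and 0 fell in EMM, against 13.6% and 12.5% of genes, and 0 members had a log2 fold change over 1, against 3.44%. In 2i/LIF, 3 were higher and 1 lower, against 21% and 23.2%, and 3 were over 1 (Keap1, Nqo1 and Gsr), against 6.77%. The median member log2 fold change was 0.30 in EMM and 0.18 in 2i/LIF, and that of all genes was 0.00 and -0.01.

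Nqo1, Hmox1 and Gsr lie on chromosome 8, whose genes as a whole were shifted in P20 2i/LIF. The median log2 fold change of 833 chromosome 8 genes was 0.45 in P20 2i/LIF against Serum/LIF, 0.135 in P20 EMM and 0.01 in P10 2i/LIF. By library, the chromosome 8 median lay at 0.427, 0.408 and 0.392 above the Serum/LIF mean in P20 2i/LIF, and at 0.146, -0.047 and -0.066 in P10 2i/LIF. Chromosome 6, which holds no member, had a median of 0.33 in P20 2i/LIF. With the chromosome 8 median taken off, the P20 2i/LIF values were 2.31 for Nqo1 and 1.08 for Gsr. Hmox1, which was not called, went from 0.18 to -0.27 and so changed sign. The part of this shift in the members' differences was not tested beyond that.

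**Figure D4:**
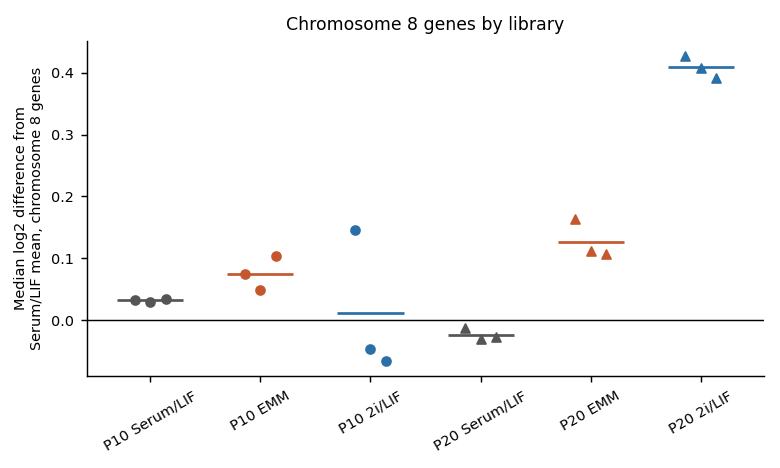
Median log2 difference of chromosome 8 genes (y axis) in each passage library from the mean of the Serum/LIF libraries, by group (x axis). Points are single libraries and horizontal lines are group means. The 3 libraries of P20 2i/LIF sit at 0.392 to 0.427, above the libraries of every other group.

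Of the regulators at P20, Nfe2l2 had 1125, 1139 and 1065 normalized counts in Serum/LIF, 1985, 1986 and 2073 in EMM, and 1081, 1638 and 1719 in 2i/LIF. EMM was clear of Serum/LIF (0.86 ± 0.16, adjusted p = 0.000352), whereas 2i/LIF library 1, the smallest library, lay within it. The difference in 2i/LIF did not pass (0.43 ± 0.16, 0.0308), and without that library it was 0.60 (0.00158). Without the filter on low counts it was also called (0.000236). Keap1 had 410.7, 392.8 and 301.6 in Serum/LIF, 364.7, 349.2 and 351.1 in EMM, and 784.8, 775.8 and 766.3 in 2i/LIF, 2.10-fold above Serum/LIF and 2.19-fold above EMM (1.07 ± 0.10 against Serum/LIF, 3.76e-08).

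Among the glutathione genes at P20, Gclm again stood highest in EMM, with 1729, 1674 and 1624 normalized counts against 1279, 1256 and 1130 in Serum/LIF and 928.1, 1207 and 1112 in 2i/LIF (0.45 ± 0.08 in EMM, adjusted p = 0.000231). Gclc had 1192, 1091 and 1108 in EMM, above 841.4, 890 and 798.4 in Serum/LIF, but did not pass (0.42 ± 0.12, 0.0106). It was called without the filter (0.000677), by DESeq2 (0.00461) and with only these 2 groups in the fit (0.000233). Its 711.9, 900.7 and 888 in 2i/LIF overlapped Serum/LIF. Gsr had 1700, 1501 and 1264 in Serum/LIF, 1922, 1798 and 1750 in EMM and 3588, 4857 and 4403 in 2i/LIF, far above the rest (1.53 ± 0.12, 3.66e-09). The EMM difference for Gsr was 0.29 ± 0.12 (0.0516).

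Txnrd1 had 4180, 4276 and 3993 normalized counts in P20 Serum/LIF and 5130, 5106 and 5202 in EMM, with no overlap (0.31 ± 0.08, adjusted p = 0.00342). The call was lost without any of the 3 EMM libraries or Serum/LIF library 1 or 3 (adjusted p from 0.0117 to 0.0203), and with library totals (0.0478). Srxn1 had 658.6, 615 and 657 in Serum/LIF, 791.7, 775 and 764.5 in EMM and 472.3, 599.2 and 480.9 in 2i/LIF. The EMM difference did not pass (0.27 ± 0.09, 0.0215), though the libraries did not overlap, and it was called with only these 2 groups in the fit (0.00276). In 2i/LIF it was lower by 1.23-fold (-0.30 ± 0.09, 0.00921), a call lost without 2i/LIF library 1 or 3 or any Serum/LIF library (adjusted p from 0.0136 to 0.0533) and under 3 other settings (0.0102 to 0.0418). Prdx1 overlapped in all 3 media, from 11948 to 15262.

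Nqo1 at P20 had 288.9, 259.3 and 230.2 normalized counts in Serum/LIF, 473.5, 505.8 and 480.2 in EMM, and 1377, 1962 and 1896 in 2i/LIF. The 3 media did not overlap. The log2 fold change was 0.90 ± 0.13 in EMM (1.87-fold, adjusted p = 3.02e-05) and 2.75 ± 0.13 in 2i/LIF (6.75-fold, 9.03e-12). Hmox1 had 991.6, 928.5 and 1084 in Serum/LIF, 1252, 1163 and 1121 in EMM and 1081, 1258 and 1056 in 2i/LIF, with no call in either medium.

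**Figure D5:**
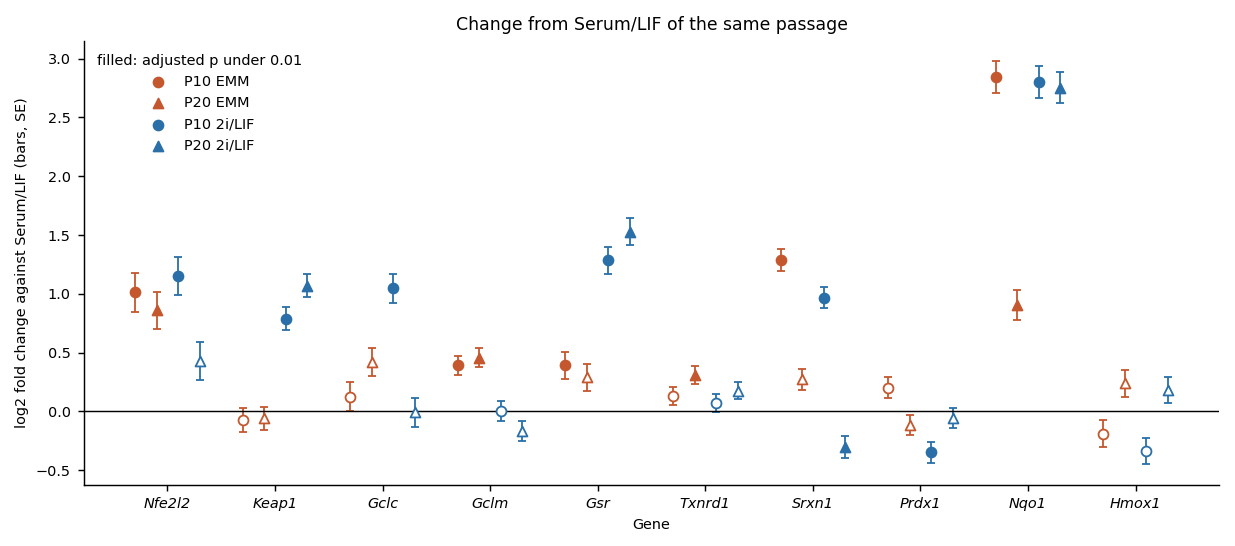
log2 fold change of each gene (y axis) in EMM and 2i/LIF against Serum/LIF of the same passage, from edgeR, with SE bars. Filled symbols have an adjusted p under 0.01. Nqo1 in 2i/LIF is at 2.80 and 2.75, while in EMM it is at 2.85 at P10 and 0.90 at P20.

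Between EMM and 2i/LIF at P20, 3 members were higher in EMM, against 25.7% of genes, and 3 lower, against 22.9%. Gclm (0.62 ± 0.08, adjusted p = 3.03e-06), Srxn1 (0.58 ± 0.09, 2.65e-05) and Gclc (0.43 ± 0.12, 0.00568) were higher. The Gclc call was lost without 2i/LIF library 1 or any EMM library (adjusted p from 0.0111 to 0.0296). Nfe2l2 did not pass (0.43 ± 0.16, 0.0251), though its EMM libraries lay above those of 2i/LIF without overlap. Without the filter on low counts it was called (0.44, 6.09e-05). Nqo1 (-1.85 ± 0.13, 5.09e-10), Gsr (-1.24 ± 0.12, 3.73e-08) and Keap1 (-1.13 ± 0.10, 1.22e-08) were lower by more than 1 in log2. With the chromosome 8 median of -0.29 taken off, Nqo1 was at -1.56 and Gsr at -0.94.

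Passage number was then compared within each medium. In Serum/LIF, 1 member was higher at P20, against 3.16% of genes, and 1 lower, against 2.85%. Srxn1 rose (0.57 ± 0.09, adjusted p = 0.00054). Nfe2l2 did not pass (0.47 ± 0.16, 0.0582), though its libraries did not overlap, and it was called without the filter (0.000624) and with only these 2 groups in the fit (0.000472). Txnrd1 fell (-0.35 ± 0.08, 0.00524), a call lost without any 1 of the 6 libraries (adjusted p from 0.0137 to 0.0302) and with library totals (0.0319). In EMM, 0 members were higher, against 13.3% of genes, and 3 lower, against 11.9%. These were Nqo1 (-1.58 ± 0.13, 4.87e-08), Prdx1 (-0.59 ± 0.09, 6.42e-05) and Srxn1 (-0.44 ± 0.09, 0.000846), and in each the libraries of the 2 passages did not overlap. Hmox1 alone was higher at an unadjusted p under 0.05 in edgeR, and DESeq2 called 0 members higher. Without the filter on low counts, Nfe2l2 (0.36, adjusted p = 0.00295) and Hmox1 (0.36, 0.0062) were called higher. In 2i/LIF, 2 were higher, against 13.1% of genes, and 2 lower, against 15.2%. Gclc (-1.10 ± 0.12, 2.16e-06) and Srxn1 (-0.70 ± 0.09, 1.17e-05) fell.

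Keap1 (0.38 ± 0.10, adjusted p = 0.00389) and Hmox1 (0.41 ± 0.11, 0.00809) were the 2 that rose in 2i/LIF. Keap1 was not called without P10 library 2 or P20 library 1 or 2 (adjusted p from 0.0108 to 0.0202) or with only these 2 groups in the fit (0.0165). Hmox1 was not called without P10 library 2 or 3 or P20 library 1 or 2 (adjusted p from 0.0103 to 0.0557), nor under 2 other settings (0.0113 and 0.0609). With the replicate number as a block within 2i/LIF, a fit added after seeing the data, 6 members were called in place of 4. The 2 gained were Gclm (-0.27 without the block, adjusted p = 0.0145, and 0.00396 with it) and Txnrd1 (-0.25, 0.0151 and 0.00552). Both were also called by DESeq2, which gave 6 calls (0.00499 and 0.00441), and without P20 2i/LIF library 2 (0.00368 and 0.00387). The chromosome 8 median in this comparison was 0.32, and Hmox1 was at 0.09 with it taken off.

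Whether the difference from Serum/LIF itself changed between passages was tested with an interaction term. For EMM, 0 members gained, against 8.28% of genes, and 2 lost, against 6.43%. The term was -1.94 ± 0.19 in log2 for Nqo1 (adjusted p = 6.67e-07), and for Srxn1 it was -1.01 ± 0.13 (1.38e-05). For 2i/LIF, 0 gained, against 9.16% of genes, and 2 lost, against 10.9%. The term was -1.06 ± 0.17 for Gclc (0.00023) and -1.27 ± 0.13 for Srxn1 (3.09e-06). On the gaining side, edgeR gave an unadjusted p under 0.05 for 1 member in EMM (Hmox1) and 2 in 2i/LIF (Hmox1 and Prdx1), and DESeq2 called 0 and 1. In EMM, Hmox1 was called without the filter (0.50, adjusted p = 0.0098). The 1 member in 2i/LIF was Hmox1 (0.52 ± 0.16 in edgeR, adjusted p = 0.0184, and 0.00572 in DESeq2), and Nfe2l2 in 2i/LIF, at -0.73 ± 0.23 (0.0202), was also called by DESeq2 (0.00812). With the replicate block within 2i/LIF both were called, Nfe2l2 at -0.74 (adjusted p = 0.000499) and Hmox1 at 0.53 (0.00888), which makes 4 calls in place of 2. Without P10 2i/LIF library 1 both were called in edgeR as well, Hmox1 at 0.67 (0.00145) and Nfe2l2 at -0.88 (0.00336). Hmox1 is on chromosome 8, whose median in this term was 0.39, and it was at 0.13 with that median taken off, a value with no test. For Nqo1 in 2i/LIF the term was -0.05 ± 0.18 (0.863), and -0.44 with the chromosome 8 median of 0.39 taken off, a value with no test. Srxn1 entered both terms with Serum/LIF libraries that had themselves risen, from 413 to 460 at P10 to 615 to 658.6 at P20.

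The other genes of the pathway were taken from a list of 89 in 8 groups, of which 82 were tested in the time course and 84 in the passage experiment. At 3 h of EMM, 18 were higher and 13 lower, against 16.3% and 18.2% of all genes tested. At 9 h, 22 were higher and 23 lower, against 18.5% and 19.7%, and at 24 h 26 and 25, against 21.8% and 22.2%. Of the partners and controllers of NRF2, 6 of 10 were higher and 1 lower at 3 h, against the same 16.3% and 18.2%, and 8 of 10 were higher at 9 h (median log2 0.31), against 18.5%. At 24 h, 6 were higher and 1 lower, against 21.8% and 22.2%. In P10 EMM, 2 were higher and 1 lower, against 18.7% and 18.7%, and in P20 EMM 4 and 1, against 13.6% and 12.5%. The small MAF genes Maff and Mafk, whose proteins dimerize with NRF2, rose by 1.16 ± 0.09 and 0.98 ± 0.06 at 3 h (adjusted p = 1.09e-07 and 4.59e-09). In P10 EMM, Mafk had a mean of 196.3 normalized counts against 392.3 in Serum/LIF, and Maff 418 against 322.2. Both had higher means in P20 EMM (Maff 522.6 against 178.3, Mafk 264.2 against 170.1). In 2i/LIF both had lower means than in Serum/LIF, Maff at 122.2 (P10) and 42 (P20), and Mafk at 102.1 and 96.12. Sqstm1, whose product p62 binds KEAP1, went from 6589 ± 310 normalized counts (SD, n = 3) to 10070 ± 454 at 24 h (0.61 ± 0.05, 1.34e-07).

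Of the genes of glutathione synthesis, use and export, 4 of 18 were higher and 9 lower at 24 h (median log2 -0.43), against 21.8% and 22.2% of all genes. Chac1, which degrades glutathione, fell from 982.6 ± 73.5 to 176 ± 6.62 normalized counts (-2.48 ± 0.08, adjusted p = 8.58e-12), while the glutathione peroxidase gene Gpx1 reached 2.00-fold at 9 h (4.02e-10). Of the quinone, aldehyde and xenobiotic enzymes, 2 of 10 were higher and 5 lower at 9 h, against 18.5% and 19.7% of all genes, and 3 were higher and 3 lower at 24 h, against 21.8% and 22.2%. Aldh3a1 rose 2.16-fold at 9 h (3.26e-05) and the carbonyl reductase gene Cbr3 1.54-fold at 24 h (1.38e-05). The aldo-keto reductase gene Akr1b8 (-0.79, 2.22e-06) and Aox1 (-0.62, 0.00629) fell at 9 h. Aox1 was low, with means of 45.99 normalized counts in Serum/LIF and 30 at 9 h, and it reversed to 69.96 at 24 h. Its 24 h libraries (66.81 to 75.41) lay above Serum/LIF (37.54 to 52.32). Akr1b8 had means of 336.4 in Serum/LIF, 194.7 at 9 h and 248.1 at 24 h. Mgst1, a microsomal glutathione transferase, was 2.90-fold lower at 24 h (4.59e-06).

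Against Serum/LIF, 27 of the 84 pathway genes rose and 20 fell in P10 EMM, where 18.7% of all genes rose and 18.7% fell, and 16 rose and 18 fell in P20 EMM, where 13.6% and 12.5% did. In 2i/LIF the counts were 30 and 24 at P10, against 26.4% and 25.6% of all genes, and 29 and 17 at P20, against 21% and 23.2%. Txnip, which encodes an inhibitor of thioredoxin known to respond to glucose, had 2646 ± 282 normalized counts (SD, n = 3) in P10 Serum/LIF and 40.45 ± 11.9 in EMM, and 3223 ± 107 and 23.58 ± 3.01 at P20. No other pathway gene tested had a lower log2 fold change in EMM against Serum/LIF at either passage (-6.15 ± 0.21, adjusted p = 1.94e-13, and -7.11 ± 0.20, 7.92e-14), and it was not analysed here in the time course. Maff was higher in P20 EMM than in Serum/LIF (1.55 ± 0.20, 9.43e-06), and so was the glutathione transferase gene Gstt2 (2.15 ± 0.14, 2.74e-09).

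Of the quinone, aldehyde and xenobiotic enzymes, 5 of 11 were higher and 1 lower in P10 EMM, against 18.7% and 18.7% of all genes, and 1 was higher and 4 lower in P20 EMM, against 13.6% and 12.5%. Aox1 (2.03 ± 0.35, adjusted p = 9.81e-05) and Akr1b8 (1.75 ± 0.18, 2.95e-07) rose in P10 EMM, and neither passed in P20 EMM (Aox1 0.60, adjusted p = 0.182, and Akr1b8 -0.27, adjusted p = 0.251). In 2i/LIF the intestinal-type glutathione peroxidase gene Gpx2 was 9.62-fold higher at P10 (8.33e-10) and 6.80-fold at P20 (7.11e-09), whereas in P20 EMM it was 4.62-fold lower than in Serum/LIF (4.94e-06). Prdx6, a peroxiredoxin that uses glutathione, fell 7.80-fold in P20 2i/LIF (3.54e-14).

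The genes whose pattern was most like that of Nfe2l2 were found by Pearson correlation of log2 CPM over libraries, as a description without a test, since libraries of a group share their condition. Over the 12 time-course libraries these were Cdc14a (r = 0.990), Avl9 (0.988) and Patl1 (0.985). Among the members Gsr was closest (0.864), then Nqo1 (0.708) and Keap1 (0.596), and Prdx1 was farthest (-0.342). Over the 18 passage libraries the closest genes included Gm13212 (0.971) and Zfp980 (0.965). The members came lower, with Srxn1 at 0.673, Nqo1 at 0.637 and Gclc at 0.611.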

How the data were processed

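RNA-seq of E14tg2a mouse ESCs gave 12 time-course and 18 passage libraries. The time-course table that the authors deposited holds whole-number counts per gene. The passage table they deposited holds estimated counts (expected counts), of which 9.982% were not whole; these were rounded. Processing notes of the submitters name STAR, featureCounts, Salmon, DESeq2 and mm10, whereas the methods of the study name STAR and HTSeq and describe counting over introns and exons. The class of reads in the time-course table is not given in the sources used here. RNA was depleted of rRNA, so counts per kb may include unspliced RNA. The labels put Serum/LIF of the time course at 0 h, while the treatment text mentions 24 h in that medium.

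After filterByExpr and TMM scaling, genes were tested by the quasi-likelihood F-test of edgeR 4.0.16 in R 4.3.3. All groups of an experiment shared the fit, which had no covariate. Adjusted p is Benjamini-Hochberg over every gene tested, with calls at an adjusted p under 0.01, and the study's extra threshold of 1 in log2 fold change is given beside them. SE is the log2 fold change over the root of F. A normalized count is the count divided by the TMM library size and multiplied by the experiment's mean. Floors cover counting error only. The members and lists were chosen with earlier results of these data known, so no list count is independent support. Pathway genes were named from the 2 largest rises and falls per comparison. These were taken among genes called, without overlap and with a mean of at least 50 normalized counts in a group. Genes named in this way are also given in other comparisons where they do not meet the rule, such as Akr1b8 and Aox1 at 9 h. Genes like Nfe2l2 are the 3 with the highest correlation of log2 CPM (prior count 2). A result for 1 of these is not reported here.

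Alternatives were the Wald test of DESeq2 1.42.0, its size factors, library totals, other filters and thresholds, fits on the compared groups alone, a replicate block, unrounded values, the chromosome median taken off, and each library left out. The steps were tested on simulated counts. Libraries of the same replicate number (title) deviated together from their group means in 1 of 21 pairs of groups, P10 and P20 2i/LIF, with correlations from 0.134 to 0.299, against -0.245 to 0.052 for other numbers. This pairing comes from the data and not from the labels. In the other pairs of groups they ran from -0.212 to 0.207, and not all were over 0.1 in any of them. By the replicate number of the descriptions, same-numbered libraries of Serum/LIF and EMM 24 h had correlations of 0.28 and 0.152. Those of Serum/LIF and EMM 9 h had 0.116 and -0.132, and those of Serum/LIF and EMM 3 h 0.0231 and -0.00315.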

Additional observations from a re-analysis of the deposited data

Results flagged for a closer look

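The difference between EMM and Serum/LIF was not the same at both passages for 2 members, by the interaction term in edgeR. It was smaller at P20 for Nqo1 (-1.94 in log2, adjusted p = 6.67e-07) and for Srxn1 (-1.01, 1.38e-05). The difference between 2i/LIF and Serum/LIF was smaller at P20 for Gclc (-1.06, 0.00023). For Srxn1 it changed by -1.27 (3.09e-06), from 0.97 at P10 to -0.30 at P20, so its sign turned. The P20 call itself was lost in 5 fits with 1 library left out (adjusted p from 0.0136 to 0.0533) and under 3 other settings (0.0102 to 0.0418). In the time course, the level in EMM differed between 3 h and 9 h for some members. It was higher at 9 h for Keap1 (0.54), Nqo1 (0.61), Gclm (0.25) and Gsr (0.19), and lower for Hmox1 (-0.53). Between 9 h and 24 h it differed for Nqo1 (0.36), which was higher at 24 h, and for Keap1 (-0.28), Hmox1 (-0.80) and Gclm (-0.59), which were lower. The time-course differences are direct contrasts of EMM libraries, since the Serum/LIF libraries are shared. Without Serum/LIF libraries at each time, they do not separate EMM from time in culture.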

How the results depend on the processing

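Of 160 pairs of a member and a comparison, 70 were called and 57 of these were called under every alternative run other than the log2 threshold of 1, with 0 changes of sign. Of the 90 not called, 23 changed sign under 1 or more alternatives. Calls were lost in 13 pairs, 12 of them when 1 library was left out, as given beside each. With the log2 threshold of 1, the members called were 0 at 3 h, 0 at 9 h, 1 at 24 h, 0 in both steps between EMM times, 3 in P10 EMM and 4 in P10 2i/LIF against Serum/LIF, 0 in P20 EMM, 0 and 3 between EMM and 2i/LIF at P10 and P20, and, from P10 to P20, 0 in Serum/LIF, 1 in EMM and 1 in 2i/LIF. Scaling by library totals gave 3 in P10 EMM and 1 between passages in Serum/LIF. Without a filter there were 5 between passages in EMM (Nfe2l2 and Hmox1 gained, both higher at P20) and 4 for the change of the 2i/LIF difference, and DESeq2 also gave 4 for the latter. An adjusted p under 0.05 gave 7 between passages in 2i/LIF and 4 for that change. Fitting only the compared groups gave 2 between passages in 2i/LIF, and 6 in place of 4 in P20 EMM. With 1 library left out, the count was 1 to 1 between passages in Serum/LIF, 2 to 4 in 2i/LIF, and 2 to 4 for the change of the 2i/LIF difference, with 4 only without P10 2i/LIF library 1. Among the values that did not pass and changed sign were Nqo1 in P10 EMM against 2i/LIF (-0.013 by library totals, -0.016 to 0.119 with 1 library left out), Nfe2l2 in the same comparison (-0.294 to 0.010) and Nqo1 for the change of the 2i/LIF difference (0.008 without a filter, -0.156 to 0.082). A replicate block by title number over all groups gave 6 calls in place of 5 at 3 h, 4 in place of 5 in P10 EMM (Gsr lost) and 3 in place of 4 in P20 2i/LIF (Srxn1 lost). By description number it gave 5 in place of 6 at 24 h (Prdx1 lost), and at 3 h it lost Txnrd1 and gained Gclc. The replicate block within 2i/LIF, chosen after seeing the data, gave 6 in place of 4 from P10 to P20 and 4 in place of 2 for the change of the 2i/LIF difference.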
